A study of Homo sapiens with 9 samples.

Results

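Small nucleolar RNA host genes were followed across Hap1 cells that carried a variant or the wild-type copy of SARS2. The 34 entries were all genes named SNHG followed by digits, together with GAS5, ZFAS1, EPB41L4A-AS1 and DANCR, out of 78894 genes in the deposited tables. They held 33 different names, since SNHG33 named both a long non-coding RNA (lncRNA) entry and a pseudogene entry, and 33 of the 34 entries had the lncRNA biotype. Hap1 is a human line of leukaemic origin with a near-haploid genome, and SARS2 encodes the mitochondrial seryl-tRNA synthetase. In all cells the endogenous SARS2 gene was deleted, a FLAG-tagged SARS2 copy under doxycycline control was present, and cells were kept for 6 days without doxycycline. The groups differed in a constitutively expressed, myc-tagged SARS2 copy, which was R227Q, H448L or wild type (WT), with 3 libraries each. The labels add the tag int14 to that copy without saying what it means, and they do not say whether a group is 1 clone or whether its libraries came from separate cultures. The p-values therefore rest on a library-to-library spread that may be technical.

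Small nucleolar RNAs (snoRNAs) guide the chemical modification of ribosomal RNA. Those with C and D boxes guide ribose methylation, those with H and ACA boxes guide pseudouridylation, and the related scaRNAs act on spliceosomal RNAs in Cajal bodies. In human cells most are cut from introns of a longer host transcript. The host transcripts studied here are spliced and polyadenylated, many hold only short reading frames, and many of them are degraded by nonsense-mediated decay (NMD) once ribosomes engage them. Several also begin with a cytosine followed by a run of pyrimidines, the terminal oligopyrimidine (TOP) start known from ribosomal protein mRNAs. Capture of polyadenylated RNA measures the spliced host transcript, whereas mature snoRNAs carry no poly-A tail.

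The snoRNAs of 4 host genes that changed in both variants are shown because genes of both classes were among those that changed. Capitals mark the first TGATGA within the first 20 bases (C box) and the last CTGA (D box) of the C/D box snoRNAs, and the last ACA of the H/ACA box snoRNA. The sequences are the GENCODE 29 transcripts on GRCh38, written 5′ to 3′.

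SNORD48 in SNHG32 (chr6:31835263-31835326, plus strand): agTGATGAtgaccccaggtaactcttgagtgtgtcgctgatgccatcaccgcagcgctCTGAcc

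SNORD12C in ZFAS1 (chr20:49278940-49279028, plus strand): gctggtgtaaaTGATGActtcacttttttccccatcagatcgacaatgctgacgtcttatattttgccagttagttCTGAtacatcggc

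SNORD1B in SNHG16 (chr17:76561109-76561192, plus strand): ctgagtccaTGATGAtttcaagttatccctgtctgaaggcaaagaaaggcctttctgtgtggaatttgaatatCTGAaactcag

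SNORA26 in DANCR (chr4:52713249-52713370, plus strand): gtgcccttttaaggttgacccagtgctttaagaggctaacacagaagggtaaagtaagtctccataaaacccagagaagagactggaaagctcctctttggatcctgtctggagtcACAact

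The annotated starts of 4 host genes called in both variants are shown, chosen because they hold a pyrimidine run. Each line runs from 30 bases before the RefSeq start to 20 bases from it (GRCh38.p14), read on the strand of the gene. Capitals mark a run of at least 5 C or T letters that begins with a C within 5 bases of the start. The first pair rose in both variants and the second pair fell in both.

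SNHG32 (chr6:31834886-31834935, plus strand): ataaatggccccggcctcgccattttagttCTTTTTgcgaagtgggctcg

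ZFAS1 (chr20:49278612-49278661, plus strand): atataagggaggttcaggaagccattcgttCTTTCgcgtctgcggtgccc

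DANCR (chr4:52712364-52712413, plus strand): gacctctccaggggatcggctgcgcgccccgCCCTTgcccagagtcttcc

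SNHG19 (chr16:2155339-2155388, minus strand): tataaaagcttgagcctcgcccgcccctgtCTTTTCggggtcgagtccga

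Total counts were 9900899 to 12991061 per library, so 1 count was worth 0.0770 to 0.101 CPM, the count scaled to a common library total. The column names carry 1 of 2 prefixes, and libraries that share a prefix are called a submission here. What a prefix stands for was not established. SDKYMR held R227Q 1, WT 1 and WT 2, and 4LJFHN held R227Q 2, R227Q 3, the 3 H448L libraries and WT 3. SARS2 was listed at 8.68, 8.35 and 7.09 CPM in R227Q, 7.88, 8.68 and 7.93 CPM in H448L, and 7.70, 8.54 and 6.20 CPM in WT, with overlap between the groups, and the tables do not separate its copies. Of 6 haematopoietic markers, CD34 stayed at or below 0.799 CPM and PTPRC at or below 0.693 CPM in every library, and the fetal globin HBG1 was at 0 in all 3 SDKYMR libraries and at 13.0 to 19.9 CPM in all 6 4LJFHN libraries. The summed level of those 6 markers was 1.63 to 16.6 CPM in R227Q, 15.6 to 21.5 CPM in H448L and 1.48 to 17.4 CPM in WT. The 5 fibroblast markers summed to 23.6 to 66.3 CPM in R227Q, 55.4 to 67.6 CPM in H448L and 18.9 to 54.0 CPM in WT, with COL3A1 also at 0 in SDKYMR alone. The 5 epithelial markers summed to 84.8 to 92.2 CPM in R227Q, 79.2 to 89.8 CPM in H448L and 78.0 to 81.5 CPM in WT. Most of that sum was KRT18, at 69.6 to 83.5 CPM, and KRT8 was at 5.58 to 8.75 CPM. EPCAM stayed at or below 1.82 CPM, KRT19 at or below 0.445 CPM and CDH1 at or below 0.267 CPM. The 5 markers of embryonic kidney and neuronal lines summed to 42.5 to 65.2 CPM in R227Q, 58.6 to 67.8 CPM in H448L and 43.2 to 60.5 CPM in WT. HBG1 and COL3A1 moved with the submission, and the markers' part in the results below was not tested beyond the submission term that every comparison carried. In bulk RNA a change in the share of cells and a change per cell cannot be told apart.

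Summed over all entries, host gene RNA spanned 3879 to 4100 CPM over the 9 libraries. The sums were 3988, 4026 and 4041 CPM in R227Q, 4013, 4100 and 3942 CPM in H448L, and 3891, 3951 and 3879 CPM in WT. All R227Q sums lay above all WT sums, H448L overlapped WT, and the means were 4018 ± 27.4 in R227Q, 4018 ± 78.9 in H448L and 3907 ± 38.4 in WT (SD, n = 3). SNHG29, formerly LRRC75A-AS1, is part of these sums, and without it they spanned 2863 to 3086 CPM over the 9 libraries. Without SNHG29 the sums were 2863, 2955 and 2969 CPM in R227Q and 2960, 2973 and 2988 CPM in WT, so R227Q overlapped WT. The H448L sums were then 2987, 3086 and 3012 CPM and overlapped WT as well. Host genes took 12.4% to 14.3% of all lncRNA counts.

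Individual host genes did change, in both directions. Of the 34 entries, 32 passed the filter on low counts and were tested with all 16908 genes in one model of group and submission. In R227Q against WT, 14 of 32 passed an adjusted p under 0.05, or 43.8%, beside 17.4% of all genes tested. Without WT 3 the counts were 9 host genes and 1093 of all genes, and without the submission term 3 host genes and 312 of all genes. Of these 14, 6 were higher, where 7.5% of all genes were, and 8 were lower, where 9.91% of all genes were. Over all genes 1268 were higher and 1676 lower, a split that became 1565 and 1335 with upper-quartile scaling, while the host genes stayed at 6 and 8. Among genes with a mean of at least 10 CPM the shares were 14 of 27 host genes, or 51.9%, and 23.5% of 9814 genes. The median log2 fold change of the 32 host genes was -0.047, beside 0.002 over all genes, and the median size of the change, regardless of sign, was 0.20, beside 0.14. All 14 kept the sign of their difference within each submission, and in 4LJFHN both R227Q libraries lay on that side of WT 3 for all 14. The 14 were called by a fit to these same libraries with the submission as a term. That choice largely sets this agreement, which is no separate support. Over the 9 libraries R227Q and WT did not overlap for 9 of the 14. How often all genes separate in this way was not counted, so this number has no background.

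The C/D box host SNHG32 (chr6:31834608-31839766, plus strand), which carries SNORD48 and SNORD52, was higher in both variants. It had 207, 226 and 227.2 CPM in R227Q 1 to 3, 207, 207 and 217 CPM in H448L 1 to 3, and 157, 158 and 159 CPM in WT 1 to 3. Every R227Q and H448L library lay above every WT library. The log2 fold change was 0.44 (SE 0.042, edgeR adjusted p = 8.9e-09) in R227Q and 0.34 (SE 0.049, edgeR adjusted p = 2.8e-05) in H448L, or 1.36-fold and 1.27-fold. In H448L the value was 0.26 and no longer passed without WT 3, which is the WT library of the submission that holds all H448L libraries.

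ZFAS1 (chr20:49278178-49295738, plus strand) carries SNORD12, SNORD12B and SNORD12C and lies antisense to the start of ZNFX1. Its level was 248, 197 and 183 CPM in R227Q 1 to 3, 194, 194 and 199.9 CPM in H448L 1 to 3, and 195, 197 and 159 CPM in WT 1 to 3. The groups overlapped over all libraries and SDKYMR ran higher, while within each submission every variant library lay above its WT libraries. ZFAS1 rose by 0.29 (SE 0.042, edgeR adjusted p = 7.9e-06) in R227Q and by 0.31 (SE 0.049, edgeR adjusted p = 0.00011) in H448L on the log2 scale. ZFAS1 passed in both comparisons without any 1 of the 9 libraries.

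SNHG29 (chr17:16438822-16478678, plus strand), host of SNORD49A, SNORD49B and SNORD65, rose in R227Q. It had 1125, 1072 and 1072 CPM in R227Q 1 to 3, 1026, 1014 and 930.1 CPM in H448L 1 to 3, and 931, 978 and 891 CPM in WT 1 to 3. The 3 R227Q libraries lay above all others, and H448L overlapped WT. The R227Q difference was 0.24 (SE 0.040, edgeR adjusted p = 6.1e-05), and the H448L difference of 0.12 (SE 0.046, edgeR adjusted p = 0.11) did not pass.

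SNHG6, host of SNORD87, reached 257, 334 and 367 CPM in R227Q 1 to 3, 330.1, 354 and 334 CPM in H448L 1 to 3, and 219, 219 and 302 CPM in WT 1 to 3. Its level followed the submission, with the 3 SDKYMR libraries lowest, and within each submission the variant libraries were above WT. SNHG6 rose by 0.21 (SE 0.043, edgeR adjusted p = 0.00066) in R227Q, and the H448L value of 0.15 (SE 0.049, edgeR adjusted p = 0.054) did not pass.

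GAS5, growth arrest specific 5 (chr1:173863900-173868882, minus strand), is the host of 10 C/D box snoRNAs and, in RefSeq, of SNORA103, and its RNA is a textbook target of NMD. The 9 libraries read 371, 351 and 350.2 CPM in R227Q 1 to 3, 353, 373 and 319.5 CPM in H448L 1 to 3, and 344, 348 and 296 CPM in WT 1 to 3. The lowest R227Q library, at 350.2 CPM, lay just above the highest WT library, at 348 CPM, and H448L overlapped WT. The difference was 0.16 (SE 0.047, edgeR adjusted p = 0.017) in R227Q and 0.17 (SE 0.055, edgeR adjusted p = 0.062) in H448L, which did not pass. It rested on WT 3, because without that library the R227Q value was 0.09 and did not pass.

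EPB41L4A-AS1 (chr5:112160526-112164276, plus strand), host of SNORA13, was the 1 gene of the 6 with no annotated C/D box snoRNA. It had 29.4, 24.2 and 22.1 CPM in R227Q 1 to 3, 23.7, 22.1 and 22.2 CPM in H448L 1 to 3, and 25.2, 22.1 and 17.8 CPM in WT 1 to 3. SDKYMR again ran higher, and within each submission R227Q was above WT. EPB41L4A-AS1 rose by 0.33 (SE 0.078, edgeR adjusted p = 0.0034) in R227Q, a call that was lost without R227Q 1 (0.36) or without WT 3 (0.30), and its H448L value of 0.30 (SE 0.096, edgeR adjusted p = 0.0504) just missed.

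**Figure D1:**
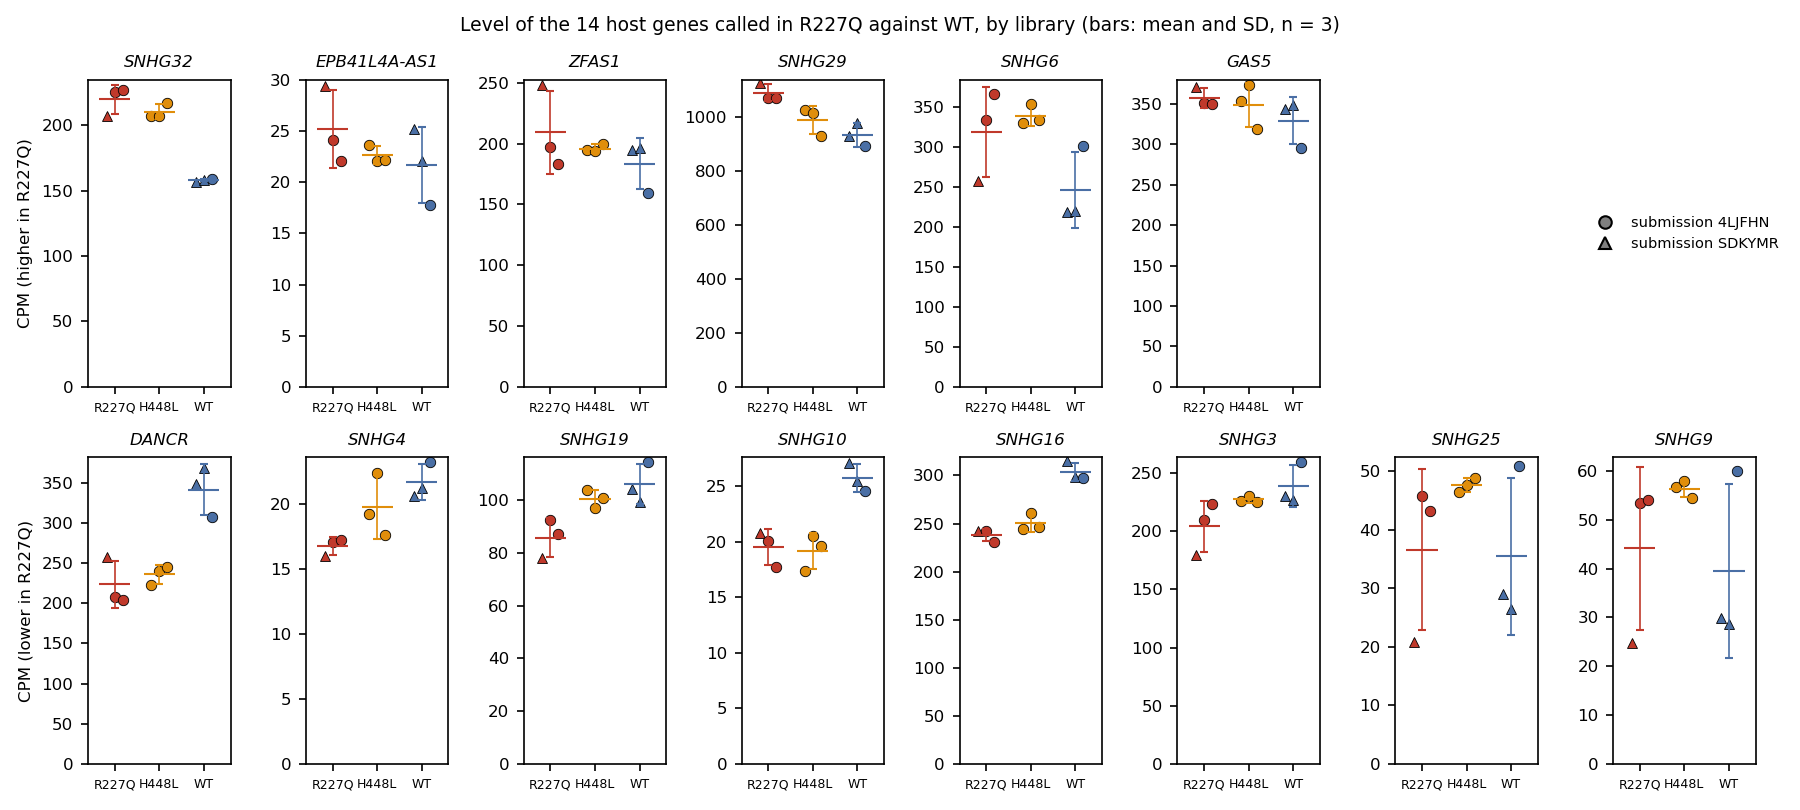
CPM of the 14 host genes that passed in R227Q against WT, one panel per gene, with groups on the horizontal axis and 1 point per library (triangles SDKYMR, circles 4LJFHN, bars mean and SD, n = 3). DANCR, SNHG10 and SNHG16 show every R227Q and H448L point below every WT point, and SNHG32 every such point above, whereas SNHG9 and SNHG25 split by submission.

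Of the 32 tested host genes DANCR had the lowest log2 fold change in R227Q. DANCR (chr4:52712404-52720351, plus strand), whose name stands for antagonizing differentiation, is an H/ACA box host of SNORA26. It had 258, 208 and 205 CPM in R227Q 1 to 3, 223, 239.6 and 246 CPM in H448L 1 to 3, and 349, 369 and 307 CPM in WT 1 to 3. Every variant library lay below every WT library, with means of 224 ± 29.6 CPM in R227Q, 236 ± 11.8 CPM in H448L and 341 ± 31.4 CPM in WT (SD, n = 3). DANCR fell by 0.53 (SE 0.042, edgeR adjusted p = 3.1e-10) in R227Q and by 0.37 (SE 0.048, edgeR adjusted p = 7.1e-06) in H448L on the log2 scale, to 0.69 and 0.77 of the WT level. Within SDKYMR the R227Q difference was -0.49 and within 4LJFHN -0.58.

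SNHG3 (chr1:28505980-28510892, plus strand) carries SNORA73A and SNORA73B, the U17 RNAs that act in cleavage of the ribosomal RNA precursor rather than in its modification. Its libraries had 179.8, 209.7 and 223 CPM in R227Q 1 to 3, 226, 230.4 and 226 CPM in H448L 1 to 3, and 231, 227.3 and 259.7 CPM in WT 1 to 3. R227Q lay wholly below WT, and H448L overlapped the SDKYMR WT libraries but lay below WT 3. SNHG3 fell by 0.31 (SE 0.041, edgeR adjusted p = 2.2e-06) in R227Q and by 0.24 (SE 0.047, edgeR adjusted p = 0.0013) in H448L, and passed without any 1 library in both.

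SNHG4 (chr5:139274102-139284899, plus strand), host of SNORA74A and SNORA74D, stood at 15.9, 17.1 and 17.2 CPM in R227Q 1 to 3, 19.2, 22.4 and 17.6 CPM in H448L 1 to 3, and 20.6, 21.2 and 23.2 CPM in WT 1 to 3. The R227Q libraries lay below all others, and H448L overlapped WT. SNHG4 fell by 0.42 (SE 0.088, edgeR adjusted p = 0.00091) in R227Q, which was lost without WT 3 (-0.40), and the H448L value was -0.24 (SE 0.10, edgeR adjusted p = 0.16).

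Among C/D box hosts, SNHG16 (chr17:76557766-76565348, plus strand), which holds SNORD1A, SNORD1B and SNORD1C, had 242, 242 and 231 CPM in R227Q 1 to 3, 245, 261 and 246 CPM in H448L 1 to 3, and 315, 298 and 298 CPM in WT 1 to 3. No variant library reached any WT library. SNHG16 fell by 0.35 (SE 0.040, edgeR adjusted p = 3.5e-07) in R227Q and by 0.27 (SE 0.047, edgeR adjusted p = 0.00031) in H448L. The H448L call was lost without WT 3 (-0.28).

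SNHG19 (chr16:2154797-2155358, minus strand), host of SNORD60, showed 78.0, 92.3 and 87.0 CPM in R227Q 1 to 3, 104, 97.1 and 101 CPM in H448L 1 to 3, and 104, 99.3 and 114 CPM in WT 1 to 3. The R227Q libraries lay below all WT libraries, and the H448L libraries lay below WT 3 and overlapped WT 1 and WT 2. The fall was -0.38 (SE 0.049, edgeR adjusted p = 1.7e-06) in R227Q and -0.22 (SE 0.056, edgeR adjusted p = 0.013) in H448L, where it was lost without R227Q 1 (-0.21), without H448L 2 (-0.19) or without WT 3 (-0.24).

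SNHG10 (chr14:95532297-95534872, minus strand), host of SCARNA13, had 20.8, 20.1 and 17.7 CPM in R227Q 1 to 3, 17.4, 20.5 and 19.6 CPM in H448L 1 to 3, and 27.1, 25.5 and 24.6 CPM in WT 1 to 3. All 6 variant libraries lay below the 3 WT libraries. The fall was alike in size in R227Q, -0.37 (SE 0.080, edgeR adjusted p = 0.0013), and in H448L, -0.37 (SE 0.097, edgeR adjusted p = 0.015). It was lost without WT 3 in both (-0.35 in R227Q and -0.34 in H448L), and in H448L also without H448L 1 (-0.31).

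SNHG25 (chr17:64145970-64146476, plus strand), host of SNORD104 and SNORA50C, and SNHG9 (chr16:1964959-1965509, plus strand), host of SNORA78, were lower in R227Q only once the submission was taken into account. SNHG25 had 20.7, 45.7 and 43.3 CPM in R227Q 1 to 3, 46.4, 47.6 and 48.8 CPM in H448L 1 to 3, and 29.03, 26.4 and 50.9 CPM in WT 1 to 3. SNHG9 had 24.8, 53.5 and 54.0 CPM in R227Q 1 to 3, 56.7, 57.8 and 54.5 CPM in H448L 1 to 3, and 29.8, 28.5 and 60.0 CPM in WT 1 to 3. Both were lower in the 3 SDKYMR libraries than in the 6 4LJFHN libraries, and within a submission every R227Q library lay below WT. The fitted differences were -0.29 (SE 0.067, edgeR adjusted p = 0.0027) for SNHG25 and -0.20 (SE 0.060, edgeR adjusted p = 0.022) for SNHG9 in R227Q. SNHG25 did not pass without R227Q 1 (-0.20). SNHG9 did not pass without R227Q 1 (-0.17), R227Q 2 (-0.19), WT 1 (-0.18) or WT 3 (-0.24). Without the submission term both values turned positive, at 0.0216 for SNHG25 and 0.138 for SNHG9. In H448L neither passed.

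In H448L against WT, 7 of 32 host genes passed, or 21.9%, beside 7.97% of all genes, and of genes with at least 10 CPM 7 of 27, or 25.9%, beside 11.4%. SNHG32 and ZFAS1 were higher, where 2.97% of all genes were higher, and DANCR, SNHG3, SNHG10, SNHG16 and SNHG19 were lower, where 4.99% of all genes were lower. With upper-quartile scaling 6 were higher and 5 lower, since SNHG6, SNHG7, GAS5 and EPB41L4A-AS1 then also passed. Over all genes that scaling called 7.31%, with 584 higher and 652 lower in place of 503 and 844, so the split moved upward there too. All 7 were also called in R227Q with the same sign, but both comparisons share the WT libraries, so this is no independent repeat. For all 7 the 3 H448L libraries lay on the called side of WT 3, which the choice by the same fit largely sets. Over the 9 libraries H448L and WT did not overlap for 4 of the 7, and the share over all genes was not counted. All H448L libraries are of 4LJFHN while WT 1 and WT 2 are of SDKYMR, so this separation mixes group and submission. At an unadjusted p under 0.05 the edgeR count was 17 of 32, beside 21.5% of all genes. The median log2 fold change of the 32 host genes was -0.024, beside 0.006 over all genes. Without WT 3, 3 of the 7 passed (DANCR, SNHG3 and ZFAS1), and 253 of all genes. Without the submission term 1 host gene (SNHG32) and 147 of all genes passed.

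**Figure D2:**
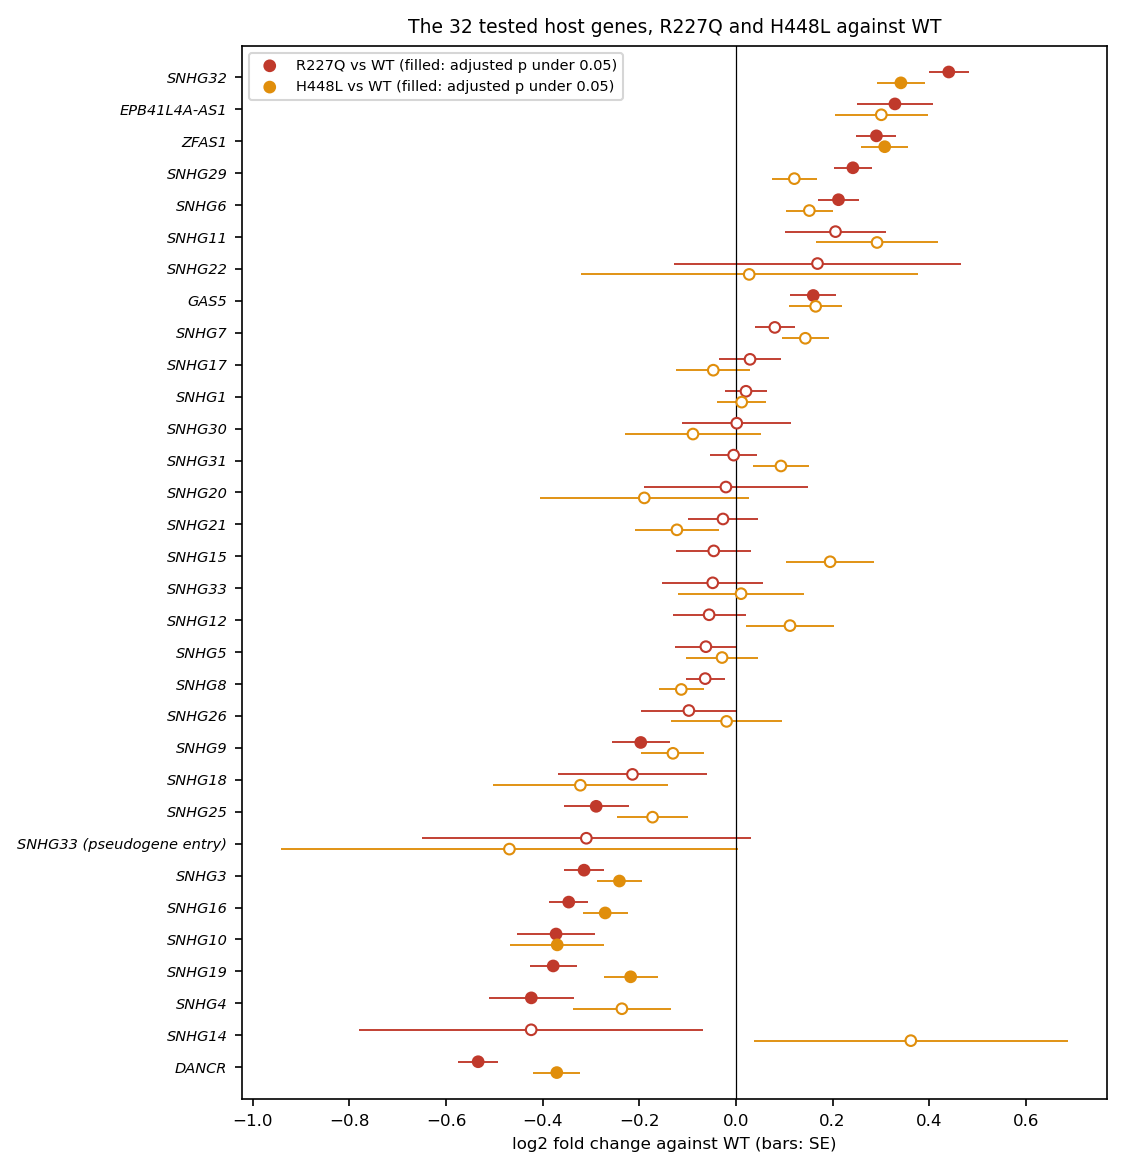
Log2 fold change of the 32 tested host genes in R227Q (red) and H448L (orange) against WT, with bars of 1 SE and filled points where the adjusted p was under 0.05. Filled points run from -0.53 for DANCR to 0.44 for SNHG32, and genes in between include SNHG1 at 0.02 with small SE.

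Between the variants, none of the 32 host genes passed in H448L against R227Q by edgeR, where 0.207% of all genes passed. At an unadjusted p under 0.05 the count was 8 of 32, beside 10.9% of all genes, limma-voom called 0, and DESeq2 called 1, DANCR. For DANCR the difference was 0.16 (SE 0.043, edgeR adjusted p = 0.13), with H448L the higher one. SNHG19 differed by 0.16 (SE 0.049, edgeR adjusted p = 0.19) and SNHG29 by -0.12 (SE 0.040, edgeR adjusted p = 0.21). A p that misses the threshold does not show equal levels. DANCR passed in edgeR once H448L 1 was left out (0.19).

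Of the 18 tested entries that passed in neither variant, 9 had a mean of at least 20 CPM. SNHG1, the host of 8 C/D box snoRNAs, is a known case of a host gene whose introns are better conserved than its exons. It had 178, 186 and 183 CPM in R227Q 1 to 3, 184, 179 and 181 CPM in H448L 1 to 3, and 185, 183 and 170.3 CPM in WT 1 to 3. The groups overlapped, with a log2 fold change of 0.02 (SE 0.043, edgeR adjusted p = 0.8) in R227Q and 0.01 (SE 0.051, edgeR adjusted p = 0.93) in H448L.

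SNHG7, host of SNORA17A and SNORA17B, had 137, 142 and 144 CPM in R227Q 1 to 3, 150.2, 152 and 151 CPM in H448L 1 to 3, and 128, 129 and 134 CPM in WT 1 to 3. All variant libraries lay above all WT libraries, yet the differences of 0.08 (SE 0.042, edgeR adjusted p = 0.2) in R227Q and 0.14 (SE 0.049, edgeR adjusted p = 0.067) in H448L did not pass. SNHG8, host of SNORA24, had 175, 195 and 198 CPM in R227Q 1 to 3, 194, 194 and 191 CPM in H448L 1 to 3, and 175, 179 and 209 CPM in WT 1 to 3, with -0.06 (SE 0.040, edgeR adjusted p = 0.31) in R227Q and -0.11 (SE 0.047, edgeR adjusted p = 0.14) in H448L. In SNHG8 the 4LJFHN libraries ran higher, and the groups overlapped.

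SNHG5, host of SNORD50A and SNORD50B, had 31.6, 34.5 and 35.9 CPM in R227Q 1 to 3, 34.8, 36.1 and 37.9 CPM in H448L 1 to 3, and 32.3, 33.9 and 36.2 CPM in WT 1 to 3. Its differences were -0.06 (SE 0.064, edgeR adjusted p = 0.57) in R227Q and -0.03 (SE 0.075, edgeR adjusted p = 0.87) in H448L. SNHG12, which holds 3 H/ACA box and 1 C/D box snoRNAs, had 27.9, 24.9 and 24.9 CPM in R227Q 1 to 3, 26.2, 28.7 and 26.5 CPM in H448L 1 to 3, and 31.3, 31.9 and 22.7 CPM in WT 1 to 3. WT 3 was the lowest SNHG12 library, and the differences were -0.06 (SE 0.075, edgeR adjusted p = 0.68) in R227Q and 0.11 (SE 0.090, edgeR adjusted p = 0.53) in H448L.

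SNHG15, host of SNORA9, had 29.2, 22.9 and 26.5 CPM in R227Q 1 to 3, 30.7, 28.9 and 32.02 CPM in H448L 1 to 3, and 27.6, 27.5 and 28.0 CPM in WT 1 to 3. H448L lay above WT and R227Q spanned it, with -0.05 (SE 0.078, edgeR adjusted p = 0.75) in R227Q and 0.19 (SE 0.091, edgeR adjusted p = 0.2) in H448L. SNHG17, host of SNORA71A to SNORA71D, had 56.7, 58.7 and 59.5 CPM in R227Q 1 to 3, 56.9, 58.7 and 49.8 CPM in H448L 1 to 3, and 55.8, 62.1 and 53.5 CPM in WT 1 to 3. Its groups overlapped, with 0.03 (SE 0.064, edgeR adjusted p = 0.82) in R227Q and -0.05 (SE 0.076, edgeR adjusted p = 0.79) in H448L.

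SNHG21, host of SCARNA15, had 44.7, 46.0 and 48.6 CPM in R227Q 1 to 3, 45.7, 47.7 and 36.8 CPM in H448L 1 to 3, and 48.1, 49.1 and 44.3 CPM in WT 1 to 3. H448L 3 was its lowest library, and the differences were -0.03 (SE 0.073, edgeR adjusted p = 0.85) in R227Q and -0.12 (SE 0.087, edgeR adjusted p = 0.46) in H448L. SNHG31 had 160.4, 156 and 156 CPM in R227Q 1 to 3, 155, 166 and 185 CPM in H448L 1 to 3, and 159, 159 and 156 CPM in WT 1 to 3, with -0.0047 (SE 0.049, edgeR adjusted p = 0.97) in R227Q and 0.09 (SE 0.057, edgeR adjusted p = 0.37) in H448L. RPL10P6, a processed pseudogene of the ribosomal protein gene RPL10, lies inside SNHG31 on the same strand with a mean of 90.02 CPM of its own, so reads may be shared and the SNHG31 level is uncertain.

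The other 8 apart from SNHG14 were below a mean of 20 CPM. SNHG11 had 13.8 to 16.9 CPM in R227Q, 14.2 to 15.8 CPM in H448L and 11.6 to 17.5 CPM in WT. SNHG26 had 13.6 to 16.7 CPM in R227Q, 15.1 to 17.6 CPM in H448L and 15.2 to 17.4 CPM in WT. SNHG30 had 9.15 to 11.6 CPM in R227Q, 8.58 to 11.01 CPM in H448L and 9.41 to 12.5 CPM in WT. In all 3 of these the groups overlapped. The lncRNA entry of SNHG33 had 10.2 to 15.3 CPM in R227Q, 11 to 13.4 CPM in H448L and 11.4 to 16.7 CPM in WT. SNHG18 had 4.64 to 7.005 CPM in R227Q, 4.98 to 6.59 CPM in H448L and 5.98 to 6.85 CPM in WT. SNHG20 had 3.48 to 5.74 CPM in R227Q, 3.45 to 4.97 CPM in H448L and 4.39 to 6.28 CPM in WT. These also overlapped between groups. SNHG22 had 1.09 to 1.64 CPM in R227Q, 1.11 to 1.67 CPM in H448L and 0.924 to 1.49 CPM in WT. The pseudogene entry of SNHG33 had 0.445 to 0.937 CPM in R227Q, 0.455 to 0.668 CPM in H448L and 0.633 to 1.40 CPM in WT. R227Q and WT overlapped in all 8, with log2 fold changes of -0.31 to 0.21 in R227Q and -0.47 to 0.29 in H448L, none of which passed. The 2 entries named SNHG33 are uncertain because the counting could split reads between them. SNHG27 was at 0 in all 9 libraries, where 3 counts would be 0.231 to 0.303 CPM, and SNHG28 was at 0 to 0.266 CPM, so that neither was tested.

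SNHG14, the long transcript of the imprinted Prader-Willi region that carries 83 C/D box snoRNAs, followed the submission. It had 0.21, 1.40 and 1.40 CPM in R227Q 1 to 3, 2.05, 2.72 and 2.45 CPM in H448L 1 to 3, and 0.654, 0.155 and 1.85 CPM in WT 1 to 3. The 3 SDKYMR libraries were lowest, and the H448L libraries lay above all others. The differences were -0.42 (SE 0.36, edgeR adjusted p = 0.48) in R227Q, 0.36 (SE 0.32, edgeR adjusted p = 0.59) in H448L and 0.79 (SE 0.27, edgeR adjusted p = 0.24) in H448L against R227Q. None passed, and SNHG14 had 143 counts in all over the 9 libraries.

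Host gene levels also differed between the submissions. In the same model, 18 of 32 host genes passed between 4LJFHN and SDKYMR, or 56.2%, beside 43.8% of all genes. Of these, 7 were higher and 11 lower in 4LJFHN. The log2 differences of 4LJFHN against SDKYMR were 2.23 for SNHG14, 1.02 for SNHG9, 0.92 for SNHG25 and 0.40 for SNHG6. On the lower side, EPB41L4A-AS1 differed by -0.43, ZFAS1 by -0.39, SNHG12 by -0.37 and DANCR by -0.32. SNHG32, SNHG16, SNHG4 and SNHG10, all called in R227Q, did not pass between submissions. Since SDKYMR holds no H448L library and 4LJFHN holds 1 WT library, the H448L values rest on WT 3 and on the submission difference seen in R227Q and WT.

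**Figure D3:**
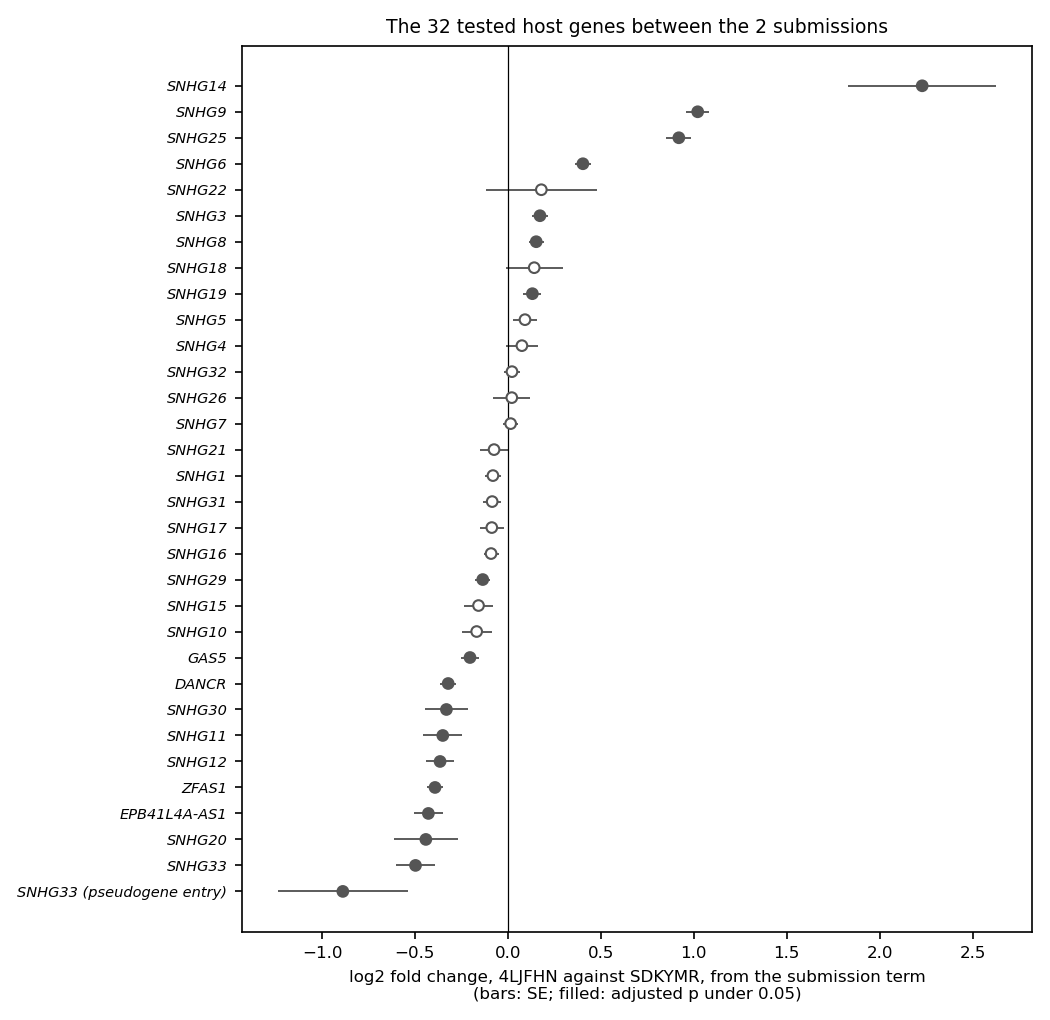
Log2 fold change of the 32 tested host genes in 4LJFHN against SDKYMR from the same model, with bars of 1 SE and filled points where the adjusted p was under 0.05. SNHG14, SNHG9 and SNHG25 lie far to the right, at 2.23, 1.02 and 0.92, and the pseudogene entry of SNHG33 lies lowest, at -0.89.

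Other genes share bases with some host genes, and the sources used here do not give whether counting used strand. SNHG10 shares 391 exon bases with GLRX5 on the opposite strand, and GLRX5, a mitochondrial iron-sulfur cluster protein, fell by 0.24 in R227Q (edgeR adjusted p = 6.6e-05) and by 0.23 in H448L (edgeR adjusted p = 0.0014). SNHG29 shares 452 exon bases with LRRC75A on the opposite strand, which differed by 0.20 in R227Q (edgeR adjusted p = 0.13) and rose by 0.35 in H448L (edgeR adjusted p = 0.039). SNHG3 lies within the span of RCC1 on the same strand, with 242 shared exon bases, and RCC1 differed by -0.08 in R227Q and -0.17 in H448L. SNHG4 lies within the span of MATR3 on the same strand, with 626 shared exon bases, and MATR3 differed by -0.06 in R227Q and -0.02 in H448L. Neither RCC1 nor MATR3 passed. ZFAS1 shares 249 exon bases with ZNFX1 on the opposite strand, which differed by 0.01 in R227Q, and EPB41L4A-AS1 shares 1659 exon bases with EPB41L4A, which differed by 0.18 in R227Q and did not pass. SNHG16 shares 1639 exon bases with AC015802.6 on the opposite strand, which differed by -0.42 in R227Q and did not pass. Whether reads of a neighbour enter the value of a host gene was not tested.

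The class of snoRNA was read from GENCODE 29 and RefSeq and was not used to choose the genes. Among the 6 host genes higher in R227Q, 5 hold a C/D box snoRNA (SNHG32, ZFAS1, SNHG29, SNHG6 and GAS5) and 2 an H/ACA box snoRNA (EPB41L4A-AS1 and GAS5). Among the 8 that were lower, 3 hold a C/D box snoRNA (SNHG16, SNHG19 and SNHG25), 5 an H/ACA box snoRNA (DANCR, SNHG3, SNHG4, SNHG25 and SNHG9) and 1 a scaRNA (SNHG10). Among the 17 uncalled entries found in GENCODE 29, 7 hold C/D box, 8 H/ACA box and 3 scaRNAs. Both classes thus stood on both sides, and the split was not tested. GENCODE 29 has 148 snoRNA and scaRNA entries inside the host genes, none of them in GAS5 and some RNAs under more than 1 entry, and 57 of these entries had a count. Since mature snoRNAs have no poly-A tail, these counts do not measure snoRNA levels.

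Of the 7 host genes called in both variants, SNHG32, ZFAS1, DANCR, SNHG16 and SNHG19 have a start window with the pyrimidine run, and SNHG3 and SNHG10 have one without it. Outside chromosome 8, 29 host gene names had a RefSeq start window, and 13 of these, or 44.8%, held the run, beside 7408 of 35116 windows of all genes, or 21.1%. The run was in 2 of 5 windows of host genes higher in R227Q, in 4 of 6 of those lower and in 7 of 16 of those not called. SNHG6, on chromosome 8, was left out, and SNHG9 and SNHG25 had no window. These counts depend on the annotated start. For GAS5, counted without the run, the RefSeq window (chr1:173869026-173869075, minus strand) lies outside the GENCODE 29 span. The run was searched on the strand of the gene only, and it is a description of these letters, not a site.

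The other genes of the pathway were described by lists. Of the listed genes eligible to be named, 22 were called in R227Q, of which 13 passed without WT 3 and 2 (CYTOR and TERC) without the submission term. In H448L 18 were called, of which 2 (DDIT3 and RBM8A) passed without WT 3 and none without the submission term. Of 24 NMD factors, 4 passed in R227Q, all lower, and 2 in H448L, both lower. These shares, 16.7% and 8.33%, were near those of all genes, 17.4% in R227Q and 7.97% in H448L. GSPT1, the release factor eRF3a, had 200 ± 11.6 CPM in R227Q, 225 ± 1.70 CPM in H448L and 240.5 ± 21.9 CPM in WT (SD, n = 3) and differed by -0.34 (SE 0.039, edgeR adjusted p = 3.3e-07) in R227Q and -0.24 (SE 0.045, edgeR adjusted p = 0.00083) in H448L. RBM8A, an exon junction complex core protein, fell by 0.23 in R227Q and 0.25 in H448L, and its partner MAGOHB fell by 0.25 in R227Q, with -0.05 in H448L. The release factor gene ETF1 was the other one called, at -0.17 in R227Q, and is named because the count is small. The helicase UPF1 was at 101 ± 12.3 CPM in R227Q, 104 ± 2.97 CPM in H448L and 95.5 ± 7.798 CPM in WT, with -0.01 (SE 0.049, edgeR adjusted p = 0.91) in R227Q and -0.07 (SE 0.057, edgeR adjusted p = 0.56) in H448L. The UPF1 mean was higher in both variants than in WT. Without the submission term its values were 0.058 in R227Q and 0.065 in H448L, and neither passed. SMG1, the kinase that acts on UPF1, and SMG5 differed by 0.06 and -0.01 in R227Q and by 0.11 and 0.03 in H448L, and neither passed.

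Of 12 mRNAs known as NMD targets, 2 were higher and 1 lower in R227Q, and 1 was higher in H448L, or 25% and 8.33%, beside 17.4% and 7.97% of all genes. The stress factor DDIT3 had 54.7, 36.7 and 34.0 CPM in R227Q 1 to 3, 30.4, 33.2 and 33.0 CPM in H448L 1 to 3, and 32.3, 31.9 and 19.7 CPM in WT 1 to 3. In the model with the submission term DDIT3 rose by 0.78 (SE 0.065, edgeR adjusted p = 8.4e-10) in R227Q and by 0.65 (SE 0.082, edgeR adjusted p = 4.2e-06) in H448L. The H448L libraries overlapped WT 1 and WT 2. Without the submission term the DDIT3 values were 0.55 in R227Q and 0.14 in H448L, and neither passed. ATF4 had 364, 269.6 and 252 CPM in R227Q 1 to 3, 259, 259 and 273 CPM in H448L 1 to 3, and 317, 339.7 and 239 CPM in WT 1 to 3. Its mean was lower in both variants than in WT, while the model with the submission term gave 0.13 (SE 0.041, edgeR adjusted p = 0.027) in R227Q and 0.13 (SE 0.048, edgeR adjusted p = 0.11) in H448L. Without that term the R227Q value was -0.043 and did not pass. The uridine phosphorylase UPP1 differed by -0.25 (SE 0.081, edgeR adjusted p = 0.03) in R227Q. As background, DDIT3 and ATF4 mRNA also respond to stress signalling.

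Genes for snoRNA-bound proteins fell or did not pass. Of 20 snoRNP proteins and assembly factors, 9 were lower and none higher in R227Q (9.91% of all genes were lower), and 4 were lower and none higher in H448L (4.99% of all genes were lower), with median log2 fold changes of -0.15 and -0.08. GAR1, of the H/ACA particle, fell by 0.25 (SE 0.046, edgeR adjusted p = 0.00024) in R227Q and by 0.19 (SE 0.054, edgeR adjusted p = 0.03) in H448L. The pseudouridine synthase DKC1 had 173, 265 and 256 CPM in R227Q 1 to 3, 272, 273 and 269 CPM in H448L 1 to 3, and 206, 195 and 284 CPM in WT 1 to 3. Its mean was higher in both variants than in WT, and within each submission R227Q lay below WT. The model with the submission term gave -0.18 (SE 0.041, edgeR adjusted p = 0.0027) in R227Q and -0.12 (SE 0.047, edgeR adjusted p = 0.13) in H448L, and without that term the R227Q value was -0.0070 and did not pass. The assembly helicase RUVBL1 fell by 0.22 in R227Q and 0.26 in H448L. NOP10 fell by 0.17 in R227Q and 0.18 in H448L, whereas FBL, the methyltransferase of the C/D particle, differed by 0.06 (SE 0.041, edgeR adjusted p = 0.33) in R227Q and -0.01 (SE 0.048, edgeR adjusted p = 0.96) in H448L. NAF1, an H/ACA assembly factor, fell by 0.43 (SE 0.12, edgeR adjusted p = 0.018) in H448L, and its R227Q value was -0.21 (SE 0.087, edgeR adjusted p = 0.088).

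Protein-coding genes that host snoRNAs moved both ways. Of 37, which include DKC1 and NOP56 of the list before, 9 were higher and 9 lower in R227Q, or 24.3% each, beside 7.5% and 9.91% of all genes. In H448L 5 were higher and 7 lower, or 13.5% and 18.9%, beside 2.97% and 4.99% of all genes. On the higher side, named after their values were seen, the ribosomal protein genes RPL27A and RPS3 both rose by 0.20 in R227Q, and in H448L by 0.16 for RPL27A and 0.18 for RPS3. The chaperone gene HSPA8 differed by -0.39 (SE 0.038, edgeR adjusted p = 1.7e-08) in R227Q and -0.22 (SE 0.045, edgeR adjusted p = 0.0014) in H448L. The nucleolar GTPase gene GNL3 fell by 0.32 in R227Q and by 0.21 in H448L. The chaperonin subunit gene CCT6A fell by 0.23 in R227Q and by 0.17 in H448L. The nucleolin gene NCL had 1244, 1655 and 1656 CPM in R227Q 1 to 3, 1771, 1659 and 1627 CPM in H448L 1 to 3, and 1448, 1417 and 1903 CPM in WT 1 to 3. The H448L libraries lay above WT 1 and WT 2 and below WT 3, and within each submission R227Q lay below WT. The model with the submission term gave -0.21 (SE 0.038, edgeR adjusted p = 0.00016) in R227Q and -0.20 (SE 0.043, edgeR adjusted p = 0.0037) in H448L. Without that term neither passed, at -0.092 in R227Q and 0.033 in H448L, and without WT 3 the H448L value of -0.20 did not pass. EIF4A1, a translation initiation helicase, fell by 0.16 in R227Q and by 0.22 in H448L.

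Of 21 tested lncRNAs that host no snoRNA, 2 were higher and 5 lower in R227Q, and 4 were higher and 2 lower in H448L, or 33.3% and 28.6% in all, beside 17.4% and 7.97% of all genes. CRNDE rose by 0.36 (SE 0.058, edgeR adjusted p = 4.6e-05) in R227Q and by 0.26 (SE 0.070, edgeR adjusted p = 0.018) in H448L. CYTOR fell by 0.71 in R227Q and 0.52 in H448L, and MIR17HG, the host of a microRNA cluster, fell by 0.38 in R227Q, with -0.14 in H448L. TERC, the telomerase RNA, was at 0.551 ± 0.188 CPM in R227Q, 0.93 ± 0.361 CPM in H448L and 1.91 ± 0.252 CPM in WT (SD, n = 3) and passed in R227Q at -1.81 (SE 0.34, edgeR adjusted p = 0.00031). Its R227Q libraries, at 0.570, 0.355 and 0.729 CPM, lay not far above the floor of 0.231 to 0.303 CPM for 3 counts. Whether poly-A capture measures the level of TERC was not tested. MALAT1 had 2023 ± 631 CPM in R227Q, 2835 ± 183 CPM in H448L and 1647 ± 573 CPM in WT. These means mix submissions, since R227Q 1, WT 1 and WT 2 had 1320, 1430 and 1215 CPM and WT 3 had 2297 CPM. In the model with the submission term MALAT1 differed by 0.01 (SE 0.052, edgeR adjusted p = 0.91) in R227Q and rose by 0.26 (SE 0.060, edgeR adjusted p = 0.0049) in H448L. It was higher in H448L than in R227Q by 0.25 (SE 0.052, edgeR adjusted p = 0.035). The H448L value against WT did not pass without WT 3 (0.23) or without the submission term (0.73). FTX rose by 0.34 (SE 0.088, edgeR adjusted p = 0.015) in H448L. The others called, named after their values were seen, were LINC00467 at 0.23, NORAD at -0.21 and OIP5-AS1 at -0.13 in R227Q, and FIRRE at 0.26 and NORAD at -0.18 in H448L.

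Of 11 regulators of TOP mRNAs and parts of mTORC1, 1 was higher and 1 lower in each variant, or 18.2%, beside 17.4% of all genes in R227Q and 7.97% in H448L. TSC2, an inhibitor of mTORC1, rose by 0.26 (SE 0.073, edgeR adjusted p = 0.013) in R227Q and by 0.37 (SE 0.085, edgeR adjusted p = 0.0064) in H448L. The cap-binding gene EIF4E fell by 0.14 in R227Q and 0.18 in H448L. LARP1, which binds the TOP start, differed by 0.0042 (SE 0.035, edgeR adjusted p = 0.96) in R227Q and -0.02 (SE 0.041, edgeR adjusted p = 0.84) in H448L.

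**Figure D4:**
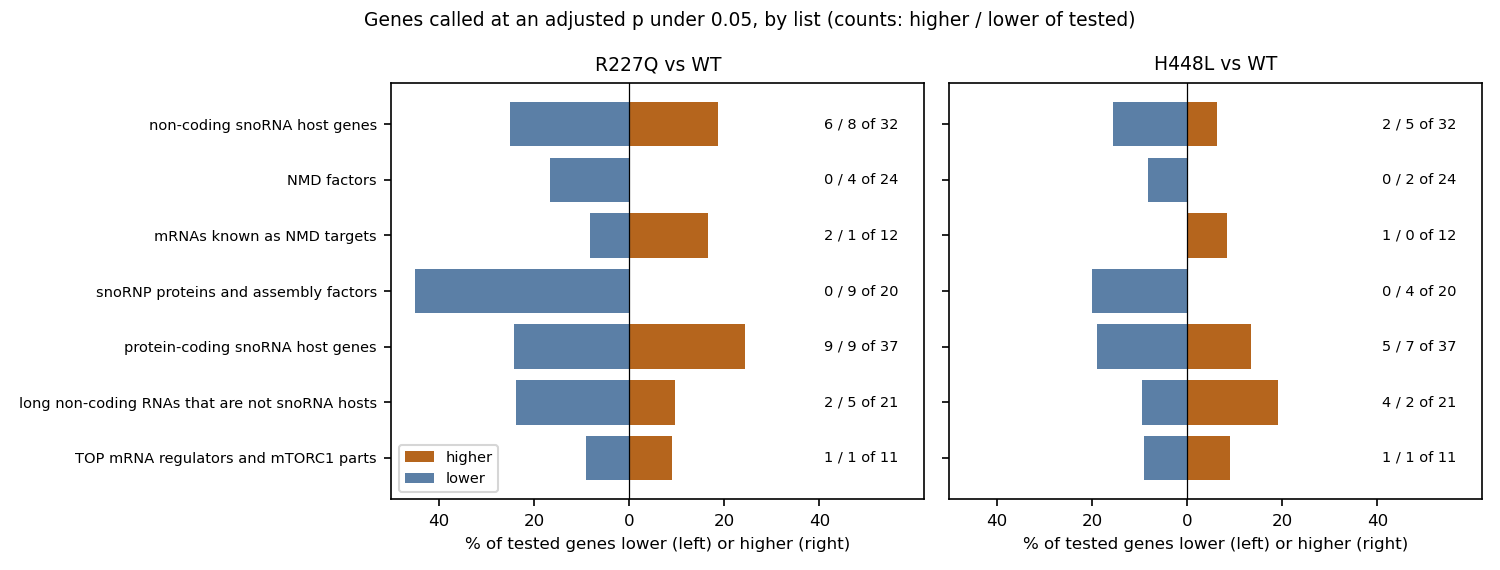
Percent of tested genes that passed an adjusted p of 0.05, lower to the left and higher to the right, for the host genes and 6 other gene lists, with R227Q against WT in the left panel and H448L against WT in the right. Host genes and protein-coding hosts show bars on both sides, and snoRNP proteins on the lower side alone.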

How the data were processed

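Lysates of 9 Hap1 samples were turned into poly-A captured, tagmented Illumina libraries by a sequencing company, per the labels' protocols. GRCh38 is the genome build per the submitters' processing notes. How reads were aligned and counted, with which annotation and strand setting, was not given in the sources used here. The authors deposited estimated counts per gene, not normalized, in 1 table per submission, per the file headers. The same deposited tables hold CPM, which equalled the count over the library total. Of the count values, 89.1% to 90.1% were whole, and counts were rounded before testing. The 92 control entries among 78986 were left out.

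Columns were matched to samples by the column names in the labels. Genes kept by filterByExpr (16908) were scaled by TMM (0.969 to 1.02) and tested with edgeR 4.0.16 quasi-likelihood tests in R 4.3.3, two-sided, with group and submission as terms, 5 residual degrees of freedom and a common biological coefficient of variation of 2.96%. P-values were adjusted by Benjamini-Hochberg over all genes tested, with a threshold of 0.05. An SE is the log2 fold change over the root of its F. Differences within a submission are of log2 CPM with a prior count of 2 and have no test. Alternatives used DESeq2 1.42.0, limma 3.58.1 voom, other scaling, filters and designs, and each library left out. Counting error alone sets the floor of 3 counts.

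Every tested host gene is named, with values per library where it passed or averaged at least 20 CPM. From each other list the 3 genes with the smallest p in a comparison, and UPF1, SMG1, SMG5, FBL, DKC1, NCL, MALAT1 and LARP1, were eligible. The host genes and lists were chosen with earlier results of these data known. Sequences and positions are from GENCODE 29 and RefSeq GRCh38.p14. Of the 34 entries, 33 were found in GENCODE 29, all but the lncRNA entry of SNHG33.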

Additional observations from a re-analysis of the deposited data

How the results depend on the processing

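Of 378 fold changes of called host genes recomputed under the alternatives, 335 stayed called in the same direction, 41 kept the direction without passing and 2 reversed, and 18 others were newly called. The reversals were SNHG9 (0.138) and SNHG25 (0.0216) in R227Q without the submission term. Without that term 3 host genes passed in R227Q (DANCR, SNHG16 and SNHG32) and 1 in H448L (SNHG32), with 312 and 147 genes over all, and 1 gene in H448L against R227Q. In 4LJFHN alone 10 host genes passed in R227Q and 6 in H448L, with 1138 and 734 genes over all. DESeq2 called 13 host genes in R227Q and 6 in H448L, with 1557 and 694 genes over all (504 higher and 1053 lower, and 160 higher and 534 lower, beside 1268 and 1676, and 503 and 844, with edgeR). In H448L against R227Q DESeq2 called 1 host gene and 54 genes, and with every gene with a count kept 122 genes passed in place of 35. Upper-quartile scaling called 11 host genes in H448L, with 1236 genes over all (584 higher and 652 lower).

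With each library left out in turn, the host genes called were 9 to 15 in R227Q, 3 to 10 in H448L and 0 to 1 in H448L against R227Q, and the counts over all genes were 1093 to 3262, 253 to 1378 and 4 to 91. The lowest of the first 2 came without WT 3. Without R227Q 1 the counts over all genes were 1278, 771 and 22. Deviations of same-numbered libraries from their group means correlated at -0.56 (R227Q 2 and WT 2) to 0.66 (R227Q 1 and WT 1). The deviations were not corrected for submission, and R227Q 1 and WT 2, numbered differently, reached 0.67. These correlations therefore cannot show whether replicate numbers pair the libraries. With the replicate block 14, 7 and 0 host genes passed in R227Q, in H448L and in H448L against R227Q, and 2669, 1055 and 31 genes over all. In H448L the block lost SNHG10 and added SNHG11.

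The limits are 1 WT library in 4LJFHN, 1 R227Q library and no H448L library in SDKYMR, and 3 libraries a group. Host genes that overlap others or have copies are uncertain. Of the tested entries, 5 averaged under 10 CPM, where only larger differences are detectable.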
